A study of Mus musculus with 20 samples.

Results

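The genes described here are 7 matrix metalloproteinases, Mmp2, Mmp3, Mmp8, Mmp9, Mmp12, Mmp13 and Mmp14, and 3 tissue inhibitors of metalloproteinases, Timp1, Timp2 and Timp3. They were found by gene symbol among the non-control probes of a single-dye mouse expression array, where 14 of 41174 probes carried 1 of these 10 symbols out of 28786 in all. Where a gene had several probes, the probe with the brightest mean over all 20 arrays was read as the gene. The study compared male wild-type and CD44-deficient mice in liver and in white adipose tissue (WAT), to learn what loss of the hyaluronan receptor CD44 does to gene expression in the 2 tissues under a high fat diet (HFD). All 20 arrays came from C57BL/6 animals of 7 months that had eaten a diet of 35% fat for 21 weeks, and no group on a normal diet was on the arrays. The groups were WT(HFD) liver, CD44KO(HFD) liver, WT(HFD) WAT and CD44KO(HFD) WAT, with 5 arrays in each. The CD44KO mice lack Cd44 in every cell, and their deletion was crossed onto C57BL/6J. The labels do not say which liver and which WAT sample came from the same animal.

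Matrix metalloproteinases are zinc endopeptidases that cut collagens, elastin, gelatins and other proteins of the extracellular matrix. Most are secreted as inactive precursors, are activated by other proteases such as plasmin or by Mmp14 at the cell membrane, and are blocked by TIMPs, which bind the active site. In liver they are known from stellate cells, macrophages and neutrophils during scar formation and its resolution, and in fat from the growth of the tissue and the macrophages that enter it. CD44 itself is known to hold Mmp9 at the cell surface and to be shed by Mmp14.

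Mmp3, Mmp8, Mmp12 and Mmp13 belong to a gene cluster on chromosome 9, where their probes lay within 286375 bases of each other (build mm7 of the array annotation). A classic feature of inducible metalloproteinase promoters is a binding site for AP-1, the Fos and Jun factor. The 120 bases before the annotated start of the 4 cluster genes are printed from RefSeq (build GRCm38.p6, all on the plus strand) because Mmp13 and Mmp3 had the largest changes of the family in liver. The motif searched was TGAGTCA on both strands, read as TGACTCA on the other, and it is shown in capitals.
Mmp13, chr9:7272394-7272513: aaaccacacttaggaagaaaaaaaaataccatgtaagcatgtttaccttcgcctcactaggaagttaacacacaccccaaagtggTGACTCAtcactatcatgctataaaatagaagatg
Mmp3, chr9:7445702-7445821: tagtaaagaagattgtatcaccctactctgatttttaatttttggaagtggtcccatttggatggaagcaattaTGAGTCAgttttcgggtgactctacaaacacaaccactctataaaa
Mmp12, chr9:7347254-7347373: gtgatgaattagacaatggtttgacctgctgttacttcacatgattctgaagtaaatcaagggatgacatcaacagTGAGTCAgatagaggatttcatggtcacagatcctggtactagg
Mmp8, chr9:7558309-7558428: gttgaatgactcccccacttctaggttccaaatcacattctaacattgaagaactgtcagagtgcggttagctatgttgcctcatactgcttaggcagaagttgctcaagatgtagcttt
The match began 35 bases before the start in Mmp13, 46 in Mmp3 and 44 in the second of 2 starts listed for Mmp12. These letters stood in 3 of the 8 genes of the family that had an entry (Mmp12, by its second start, Mmp13 and Mmp3), and were not in the windows of Mmp8, Mmp14, Timp1, Timp2 and Timp3. The windows searched run from 250 bases before to 50 bases after the start and are longer than the stretches printed. Of all 32851 such windows 5.2% held the motif, and 4.46% held it before the start, where the 3 matches lay. A match describes these letters only.

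Probes of 60 bases were read for the coding parts of Timp1 and Mmp12, and they are printed because the probes of Timp1 gave different answers and because the Mmp12 probe crosses an intron. Positions are those of the array annotation (mm7).
Timp1 A_51_P512384, chrX:19305929-19305988: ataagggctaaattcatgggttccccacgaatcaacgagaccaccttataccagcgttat
Timp1 A_51_P512379, chrX:19305989-19306238: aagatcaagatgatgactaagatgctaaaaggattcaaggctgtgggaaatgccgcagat
Timp1 A_52_P87713, chrX:19307699-19307758: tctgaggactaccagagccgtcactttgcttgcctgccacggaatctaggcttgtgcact
Mmp12 A_51_P313674, chr9:7352125-7352640: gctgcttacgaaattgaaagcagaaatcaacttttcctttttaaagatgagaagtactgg
The first 2 Timp1 probes abut in the transcript, and the second of them spans 250 bases of the genome. The brightest Timp1 probe, A_52_P87713, lies 1461 bases further along the chromosome, toward the end of the coding sequence. The Mmp12 probe spans 516 bases of the genome.

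All values are log2 signals relative to the 75th percentile of the same array, so that 0 is the brightness below which 75% of the non-control spots lie. A level can be compared between arrays for 1 probe, and not between probes. Cd44 itself checked the labels: on its probe A_52_P229536 the liver means were 0.48 for WT(HFD) against -3.74 for CD44KO(HFD). The WAT means were 4.07 against -0.51, with no overlap in either tissue. This probe was still well above background on 3 CD44KO(HFD) liver and 5 CD44KO(HFD) WAT arrays. Probe A_52_P523459 changed by -4.57 in liver and -4.28 in WAT. The dim probe A_51_P407053 did not fall in liver (0.20, adjusted p = 0.888, limma), with 3 WT(HFD) and 2 CD44KO(HFD) arrays well above background. The 5 hepatocyte markers summed to 1455 to 2196 times the 75th percentile signal on the liver arrays and to 3.77 to 41.3 on the WAT arrays, and the 6 adipocyte markers to 505 to 1194 in WAT and 9.70 to 101 in liver. Between 57.4% and 61.9% of spots were well above background on the liver arrays, and between 63.2% and 69.5% on 9 of the WAT arrays. WT(HFD) WAT replicate 1 stood apart with 89.5%, and the values without it are given where they differ. Liver and WAT were scanned on different slides and scanners, so levels in the 2 tissues cannot be told apart from these.

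In CD44KO(HFD) liver, Mmp13, Mmp3, Timp2 and Timp3 fell against WT(HFD), 4 of the 8 genes bright enough to be tested, and none rose (adjusted p under 0.05, limma). Mmp13 and Mmp3 passed the filter on dim probes through the WT(HFD) arrays, since 1 and 0 of their 5 CD44KO(HFD) arrays were well above background, whereas Timp2 and Timp3 were well above background on every array. Mmp2, Mmp12, Mmp14 and the brightest Timp1 probe did not pass. Over all 24688 probes tested, 5.75% were called lower and 13.6% were called in either direction. Among the 8 genes tested the genotypes did not overlap, in the lower direction, for Mmp13, Mmp3, Timp2 and Timp3, as for 4.22% of all probes tested. The median log2 fold change of the 8 genes was -0.87, and that of all probes tested was 0.075. The change ran from -3.58 in Mmp13 to 0.18 in Mmp14. Mmp8 and Mmp9 were too dim in liver to be tested. Each genotype was of 5 mice by the methods, which matches the 5 arrays of a group, although no label ties an array to a mouse.

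**Figure D1:**
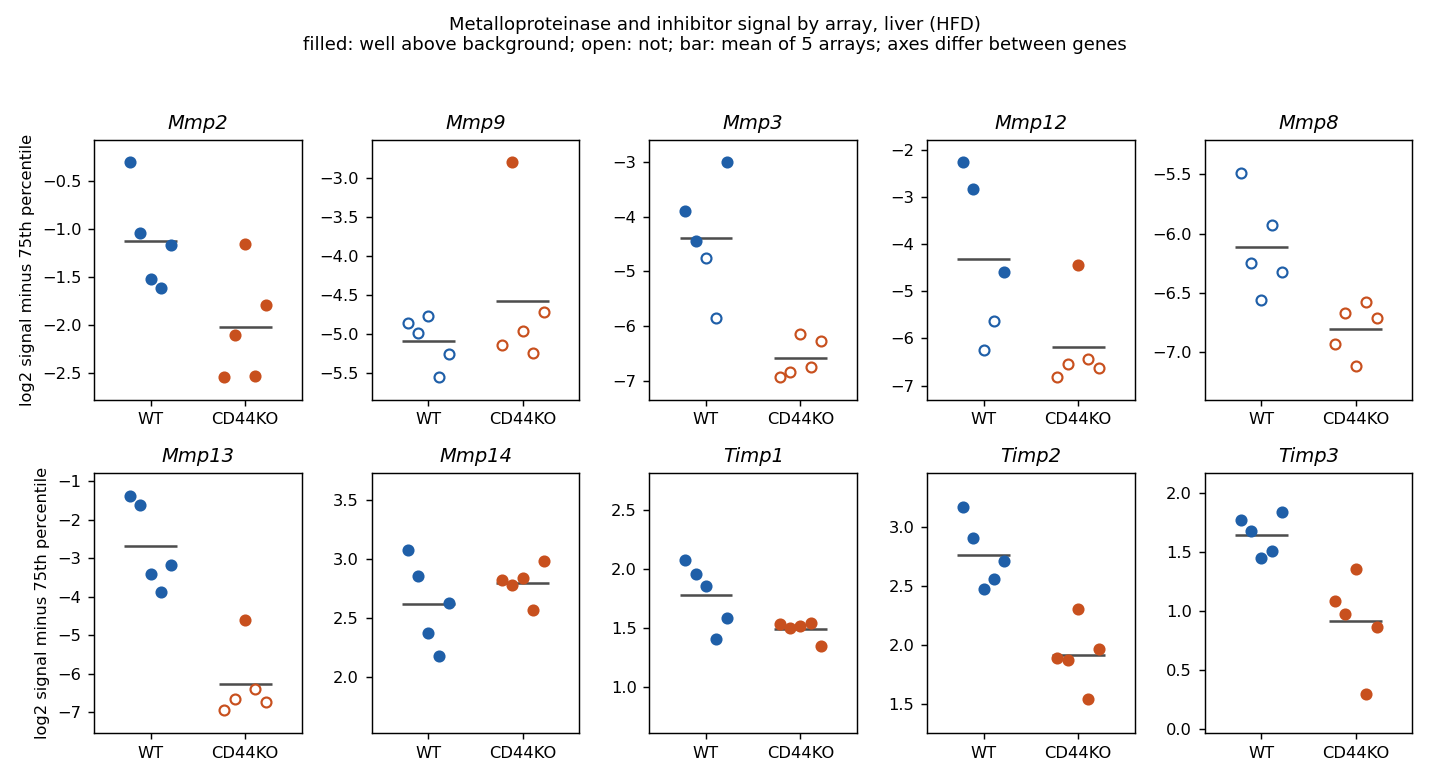
Log2 signal minus the array's 75th percentile (vertical axes, which differ between genes) for the brightest probe of each gene in WT(HFD) and CD44KO(HFD) liver, 1 point an array, open where the probe was not well above background, with a bar at the mean of 5 arrays. The CD44KO(HFD) points of Mmp3, Mmp13, Timp2 and Timp3 all lie below the WT(HFD) points, and CD44KO(HFD) replicate 3, the middle point of its column, is the highest of its group for Mmp2, Mmp3, Mmp12, Mmp13, Timp2 and Timp3.

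Mmp13, a collagenase that cuts fibrillar collagen, had the widest difference of the family. Its WT(HFD) liver arrays read -1.38, -1.62, -3.42, -3.88 and -3.17, and all 5 were well above background. Its CD44KO(HFD) liver arrays read -6.95, -6.65, -4.62, -6.40 and -6.73. The highest CD44KO(HFD) array, replicate 3, was the only one well above background, and it still lay below every WT(HFD) array. The change of -3.58 on the log2 scale (standard error 0.58; limma, adjusted p = 0.0103) was an 11.9-fold lower signal, with an exact two-sided permutation p of 0.00794, the smallest that 5 against 5 arrays can give. Because 4 of the 5 CD44KO(HFD) values were near background, the size depends on how dim signals are read. Where each array's dimmest trusted signal, the lowest one flagged as well above background, was set as a floor, Mmp13 had -1.95 (limma, adjusted p = 0.0232). Under normexp background correction it had -0.74 (limma, adjusted p = 0.314) and no longer passed. On the 3 slides that held both genotypes the differences were -3.40, -3.77 and -3.54.

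Mmp3, stromelysin 1, cuts proteoglycans and activates other metalloproteinases. Its WT(HFD) liver arrays read -3.90, -4.45, -4.76, -5.84 and -3.01, of which replicates 1, 2 and 5 were well above background. The CD44KO(HFD) arrays read -6.93, -6.83, -6.13, -6.75 and -6.27, all not well above background. The groups did not overlap, and CD44KO(HFD) liver had an at least 1.27-fold lower signal (limma on the measured means of -4.39 and -6.58, adjusted p = 0.0178). This figure takes no CD44KO(HFD) reading below its array's dimmest trusted signal, and it is not a bound under other background corrections. The call was lost with the floor on dim signals (-0.65; limma, adjusted p = 0.142) and under normexp (-0.12; limma, adjusted p = 0.83). Both Mmp13 and Mmp3 passed with each of the 10 liver arrays left out in turn.

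Mmp12, macrophage elastase, followed the same arrays without passing the test. Its WT(HFD) liver values were -2.27, -2.84, -6.23, -5.64 and -4.59, with replicates 1, 2 and 5 well above background. The CD44KO(HFD) values were -6.82, -6.54, -4.45, -6.43 and -6.63, and only replicate 3 was well above background. The groups overlapped, because WT(HFD) replicates 3, 4 and 5 lay below CD44KO(HFD) replicate 3. Mmp12 changed by -1.86 (95% interval -3.60 to -0.12, adjusted p = 0.133, limma), with the floor on dim signals it was -0.85 and under normexp -0.21. In the chromosome 9 cluster, WT(HFD) replicates 1 and 2 were the brightest 2 arrays for Mmp13 and Mmp12, and WT(HFD) replicate 5 the brightest for Mmp3.

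Mmp2 and Mmp14 act together, since Mmp14, a membrane-bound collagenase, activates the gelatinase Mmp2. Mmp2 read -0.31, -1.04, -1.52, -1.62 and -1.17 in WT(HFD) liver and -2.55, -2.11, -1.16, -2.53 and -1.79 in CD44KO(HFD) liver. Of the CD44KO(HFD) arrays 5 of 5 were under the mean of WT(HFD), but replicate 3 lay among the WT(HFD) arrays. The change of -0.90 (standard error 0.31) had an adjusted p of 0.0804 (limma). It passed with the slide as a block (adjusted p = 0.0266, limma) and with each array weighted by its quality (-0.94, adjusted p = 0.0394, limma). It also passed without CD44KO(HFD) replicate 3 (-1.11, adjusted p = 0.0247, limma), and with none of the other 9 arrays left out. Mmp14 had 3.08, 2.85, 2.37, 2.18 and 2.63 in WT(HFD) and 2.83, 2.78, 2.84, 2.57 and 2.98 in CD44KO(HFD) liver, so the CD44KO(HFD) arrays lay within the WT(HFD) range. Its log2 fold change was 0.18 (95% interval -0.18 to 0.54), and its dimmer second probe gave 0.11 (95% interval -0.33 to 0.56).

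Mmp8, the neutrophil collagenase, failed the background flag on all 10 liver arrays. Its values ran from -6.56 to -5.49 in WT(HFD) and from -7.12 to -6.58 in CD44KO(HFD) liver. These ranges did not overlap, but every value was near background and Mmp8 was not tested. Mmp9, the gelatinase of neutrophils and macrophages, was well above background on 1 liver array. Its WT(HFD) liver arrays read -5.55 to -4.77 and 4 CD44KO(HFD) arrays read -5.24 to -4.72, while CD44KO(HFD) replicate 2 read -2.79. The second Mmp9 probe failed the background flag on all of them, that array included.

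By its brightest probe each inhibitor was well above background on every liver array. Timp2, which blocks most metalloproteinases and also serves as the bridge by which Mmp14 binds Mmp2, read 3.18, 2.91, 2.48, 2.56 and 2.72 in WT(HFD) liver. It read 1.89, 1.87, 2.31, 1.54 and 1.97 in CD44KO(HFD) liver, below every WT(HFD) array. Timp2 changed by -0.85 (standard error 0.16; limma, adjusted p = 0.0161) and passed whichever liver array was dropped. Timp3, the TIMP that is bound to the matrix and also blocks ADAM17, read 1.77, 1.68, 1.45, 1.51 and 1.84 in WT(HFD) liver and 1.08, 0.98, 1.36, 0.30 and 0.87 in CD44KO(HFD) liver. The groups did not overlap, and the closest arrays were WT(HFD) replicate 3 and CD44KO(HFD) replicate 3. Timp3 changed by -0.73 (standard error 0.18; limma, adjusted p = 0.0271), and with no filter on dim probes it did not pass (limma, adjusted p = 0.0623). Dropping 1 array at a time, it passed in 4 of 10 fits, and its highest adjusted p was 0.0652, without WT(HFD) replicate 2. Timp2 and Timp3 kept their calls under normexp (-0.92 with an adjusted p of 0.0146 and -0.74 with 0.0208, limma). In a fit of all 20 arrays with 1 shared spread neither passed (adjusted p = 0.0818 and 0.0762, limma). Within the 3 liver slides the differences of Timp2 were -0.81, -1.03 and -0.59, and those of Timp3 were -0.69, -0.95 and -0.37.

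Timp1, the inducible TIMP, gave different answers on its 3 probes, whose sequences are given above. The brightest probe, A_52_P87713, read 2.07, 1.96, 1.86, 1.41 and 1.58 in WT(HFD) liver and 1.53, 1.50, 1.52, 1.54 and 1.35 in CD44KO(HFD) liver. Its groups overlapped, with a change of -0.29 (standard error 0.12; limma, adjusted p = 0.142). Probe A_51_P512384 read -1.58, -1.87, -2.82, -2.66 and -3.21 in WT(HFD) and -5.24, -5.28, -2.77, -5.03 and -4.57 in CD44KO(HFD) liver. Only CD44KO(HFD) replicate 3 reached the WT(HFD) range, and replicates 3 and 5 were the CD44KO(HFD) arrays well above background. This probe changed by -2.15 (standard error 0.50; limma, adjusted p = 0.0247). Probe A_51_P512379, which abuts it, read -2.25, -2.79, -4.22, -4.17 and -4.02 in WT(HFD) and -7.16, -6.77, -3.78, -5.21 and -5.45 in CD44KO(HFD) liver. CD44KO(HFD) replicate 3 was again the highest of its group and the only one well above background, and it lay above 3 WT(HFD) arrays. It changed by -2.19 (standard error 0.64; limma, adjusted p = 0.0493).

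The unequal change between Timp1 probes is given as a description, since it was chosen after the values were seen and most CD44KO(HFD) readings of the dimmer probes were not well above background. The difference A_51_P512384 minus A_52_P87713 within an array ran from -4.80 to -3.65 in WT(HFD) liver and from -6.78 to -4.29 in CD44KO(HFD) liver, and so overlapped between the genotypes. Read by its brightest probe Timp1 was not called in liver, and with the mean over its 3 probes it had -1.54 (adjusted p = 0.0309, limma). Under normexp both dimmer probes lost the call (-0.70 with an adjusted p of 0.294 and -0.34 with 0.54, limma). Dropping 1 array at a time, A_51_P512384 passed in 4 and A_51_P512379 in 1 of 10 fits, the highest adjusted p being 0.0633 and 0.113 without WT(HFD) replicate 2. The sequences do not say which probe follows the Timp1 transcript most closely, and the cause of the split was not tested.

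**Figure D2:**
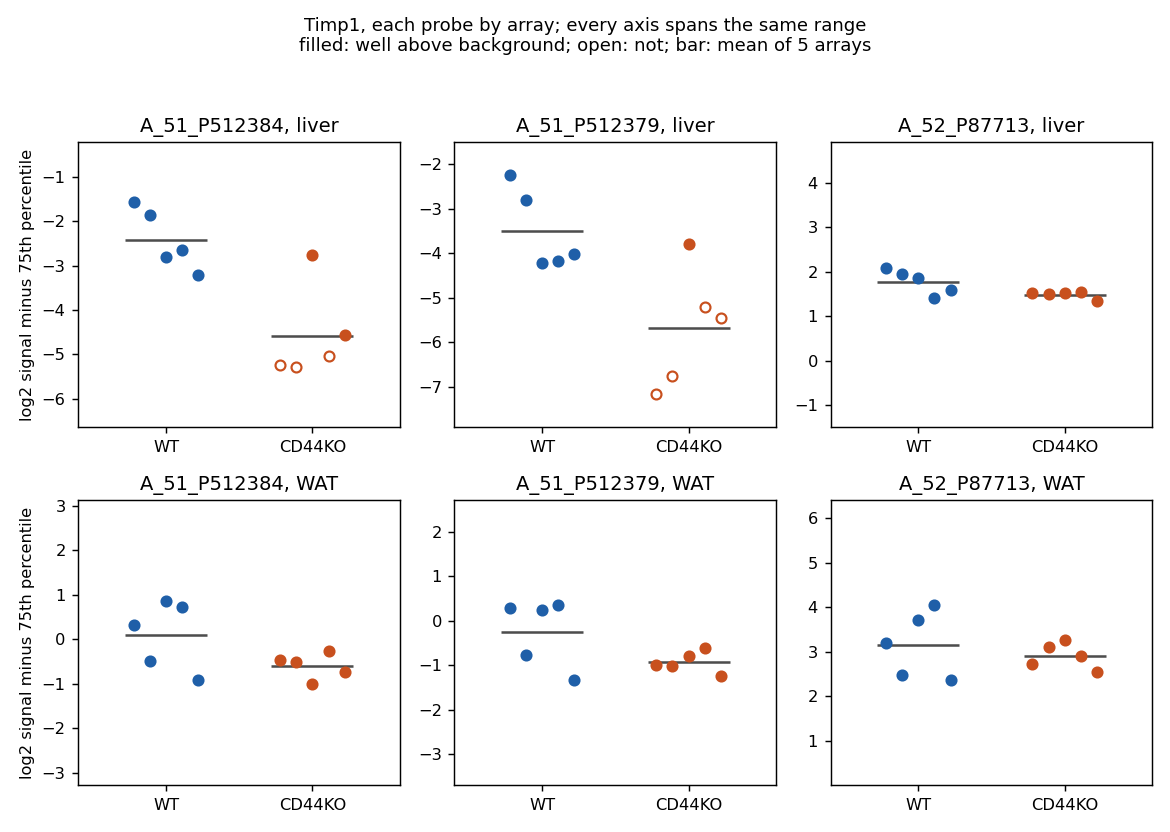
Log2 signal minus the array's 75th percentile (vertical axes, all of the same span) of the 3 Timp1 probes in liver (top) and WAT (bottom), 1 point an array, open where not well above background, bars at the mean of 5 arrays. In liver the 2 dimmer probes separate 4 of 5 CD44KO(HFD) arrays from WT(HFD), while the brightest probe changes by -0.29.

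Bulk tissue was measured, in which fewer cells of a type and less RNA per cell cannot be told apart. Of the markers of cells that make these proteins, some were lower in CD44KO(HFD) liver, where 5.75% of all probes tested were called lower. Of the hepatic stellate cell and fibroblast markers 7 of 12 tested were called lower, Col1a1, Col1a2, Col3a1, Pdgfrb, Dcn, Thy1 and Tagln (the collagens and Dcn are also counted below as matrix substrates). Lum (-0.75), Lrat (-0.46), Des (-0.34), Pdgfra (-0.29) and Acta2 (-0.22) were tested and not called. The 13 genes of this list summed to 117 to 174 times the 75th percentile signal in WT(HFD) and 74.9 to 113 in CD44KO(HFD) liver. Of the macrophage markers 8 of 15 tested were lower, among them Trem2, Itgax and Gpnmb, with sums over 16 genes of 71.7 to 161 and 54.8 to 142. Gpnmb passed the filter on dim probes through WT(HFD), since 1 of its 5 CD44KO(HFD) arrays was well above background. The macrophage markers Adgre1 (0.50), Mrc1 (0.49), Csf1r (0.071) and Lyz2 (-0.15) were not called, their log2 fold changes being above 0 for all but Lyz2. The rest of those tested and not called, Cd68 (-0.55), Ctss (-0.72) and Msr1 (-0.80), had log2 fold changes below 0. Of the T cell markers 4 of 7 were lower, Cd3d, Cd3g, Cd8a and Lck, while Cd2 (-0.31), Cd3e (0.12) and Cd4 (0.20) were not called. Cd8a was well above background on no CD44KO(HFD) array. The T cell sums were 1.64 to 2.87 in WT(HFD) and 1.34 to 1.90 in CD44KO(HFD) liver, with medians of 1.76 and 1.82. None of 5 endothelial markers was called and 1 of 5 hepatocyte markers was higher. The 9 neutrophil markers summed to 1.785 to 2.996 in WT(HFD) and 0.8293 to 1.997 in CD44KO(HFD) liver, with none of the 4 tested called. CD44KO(HFD) replicate 3 was the array nearest WT(HFD) for Mmp12, Mmp13, Mmp2 and the dimmer Timp1 probes. It also had the highest stellate cell and fibroblast sum of its group (113) and the highest adipocyte sum (70.1, the others being 9.70 to 45.6). Its macrophage sum was 107, under the 142 of CD44KO(HFD) replicate 5, where Mmp12 read -6.63 and Mmp13 -6.73. The part of these cells in the values of the family was not tested.

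In WAT none of the 10 genes passed. Over all 27652 probes tested, 0.0398% were called by limma, 11 in all. Without adjustment 4111 probes had a limma p under 0.05, Mmp12 and Mmp13 among them. The median log2 fold change of the 10 genes was -0.59, and that of all probes tested was -0.060. It was below 0 for 9 genes and above 0 for Timp3. Scaling on the median signal in place of the 75th percentile moved the median of all probes to 0.42. It also turned Mmp2 (0.13) and Timp1 (0.23) to the other side. The median signal was 897 on WT(HFD) replicate 1 and 117 to 224 on the other WAT arrays, and median scaling without that array is not given. With the 75th percentile, no single array left out turned Mmp2 (highest -0.15) or the brightest Timp1 probe (highest -0.028). 

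**Figure D3:**
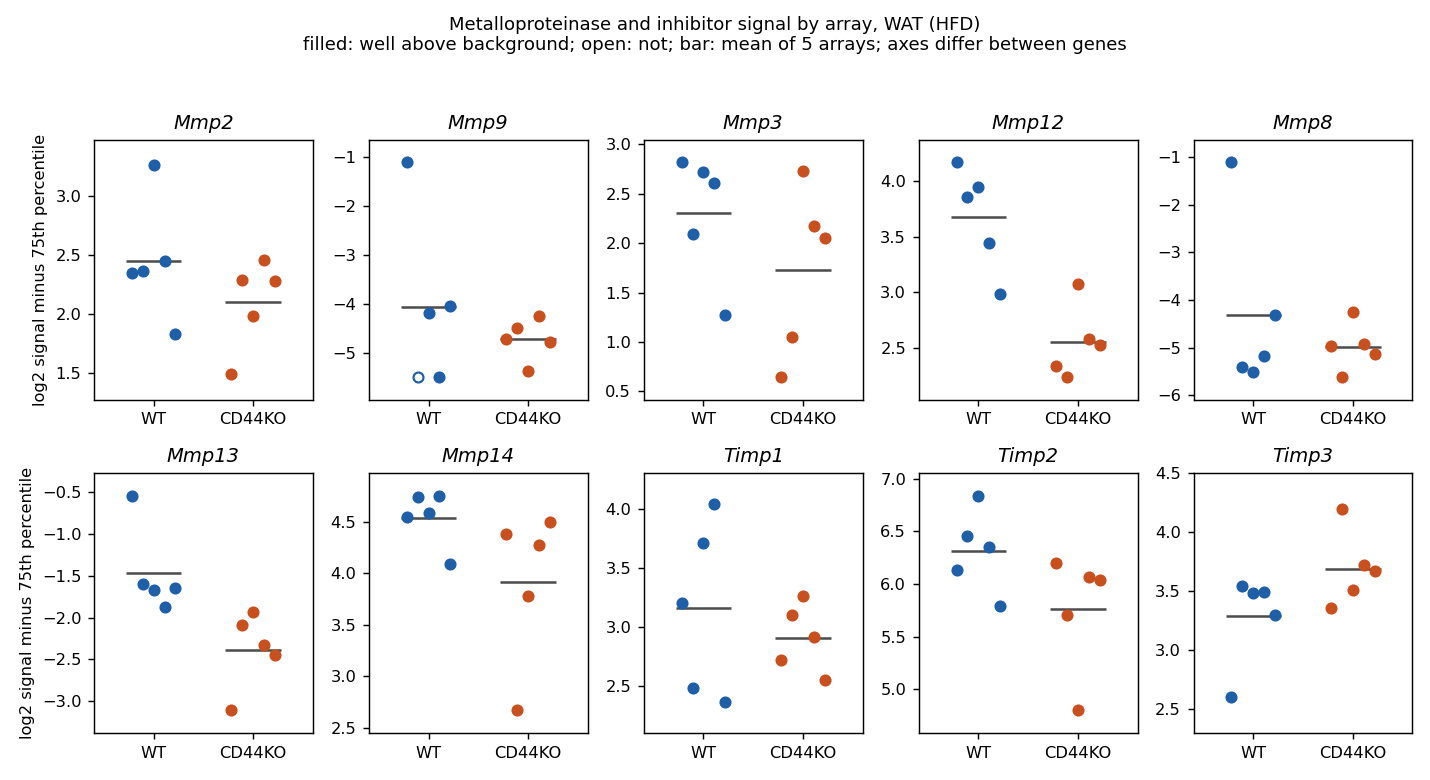
Log2 signal minus the array's 75th percentile (vertical axes, which differ between genes) for the brightest probe of each gene in WT(HFD) and CD44KO(HFD) WAT, 1 point an array, open where not well above background, with a bar at the mean of 5 arrays. Mmp13 is the gene whose genotypes do not overlap, and WT(HFD) replicate 1, the first point of its column, stands far above the rest for Mmp8 and Mmp9.

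Mmp12 had the widest mean difference of the family in WAT. Its WT(HFD) arrays read 4.17, 3.85, 3.95, 3.44 and 2.99 and its CD44KO(HFD) arrays 2.33, 2.24, 3.07, 2.58 and 2.52. The groups overlapped only in that CD44KO(HFD) replicate 3 lay above WT(HFD) replicate 5. The change was -1.13 (standard error 0.25; limma, adjusted p = 0.165; exact permutation p = 0.0159), with 5 of 5 CD44KO(HFD) arrays under the mean of WT(HFD), and -0.65 with median scaling. Mmp13 read -0.54, -1.59, -1.67, -1.87 and -1.64 in WT(HFD) and -3.11, -2.09, -1.93, -2.33 and -2.45 in CD44KO(HFD) WAT. The groups did not overlap, as was so for 2.07% of all probes tested in the lower direction, and the closest arrays were CD44KO(HFD) replicate 3 and WT(HFD) replicate 4. Mmp13 changed by -0.92 (standard error 0.30; limma, adjusted p = 0.226; exact permutation p = 0.00794, the smallest possible), and by -0.69 without WT(HFD) replicate 1. Both genes passed where each array was weighted by its quality (Mmp12 -1.14, adjusted p = 0.00322, and Mmp13 -0.76, adjusted p = 0.00867, limma), as did 2851 of the 27652 probes. Genotype was uneven over the WAT slides, of which 1 held 2 arrays of each genotype, 1 held 3 WT(HFD) and 1 CD44KO(HFD) array and the third held CD44KO(HFD) arrays only. On the first 2 of these slides the differences were -1.43 and -0.52 for Mmp12 and -1.06 and -0.30 for Mmp13. Those of Mmp3 (-1.16 and 0.71), Mmp8 (-2.23 and 0.83) and the brightest Timp1 probe (-0.80 and 0.41) had opposite signs.

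The other genes overlapped in WAT. Mmp3 read 2.82, 2.09, 2.72, 2.60 and 1.27 in WT(HFD) and 0.65, 1.05, 2.73, 2.17 and 2.05 in CD44KO(HFD) WAT, a log2 fold change of -0.57 (95% interval -1.55 to 0.41). Mmp14 read 4.54, 4.74, 4.58, 4.75 and 4.08 against 4.38, 2.67, 3.77, 4.28 and 4.49, with CD44KO(HFD) replicate 2 the lowest, and a log2 fold change of -0.62 (95% interval -1.36 to 0.12). Timp2 read 6.13, 6.46, 6.84, 6.35 and 5.79 against 6.20, 5.71, 4.80, 6.06 and 6.03, a log2 fold change of -0.55 (95% interval -1.21 to 0.10). In each of these 3 genes 2 CD44KO(HFD) arrays lay below the WT(HFD) arrays and the other 3 lay within the WT(HFD) range. These 3 intervals hold 0, while the dimmer second probe of Mmp14 had -0.92 (95% interval -1.76 to -0.087; limma, adjusted p = 0.30).

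Timp3 had the opposite sign in WAT. It read 2.61, 3.55, 3.48, 3.50 and 3.30 in WT(HFD) and 3.36, 4.20, 3.51, 3.72 and 3.67 in CD44KO(HFD) WAT, with 5 of 5 CD44KO(HFD) arrays over the mean of WT(HFD). The change was 0.40 (95% interval -0.10 to 0.91, adjusted p = 0.419, limma) and 0.23 without WT(HFD) replicate 1, which was the lowest. Timp1's brightest probe read 2.36 to 4.04 in WT(HFD) and 2.55 to 3.26 in CD44KO(HFD) WAT, and its 3 probes had log2 fold changes of -0.25, -0.69 and -0.70. Mmp2 read 1.83 to 3.26 and 1.49 to 2.46, with -0.35 (95% interval -0.96 to 0.26). Mmp8 and Mmp9 read -1.11 and -1.10 on WT(HFD) replicate 1 and -5.51 to -4.31 and -5.49 to -4.03 on the other WT(HFD) arrays. Their log2 fold changes of -0.67 and -0.66 became 0.13 and 0.081 without that array.

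None of the cell type markers tested in WAT was called by limma. The 6 mast cell markers summed to 18.3 to 44.6 in WT(HFD) and 1.32 to 10.7 in CD44KO(HFD) WAT, and the 16 macrophage markers to 656 to 915 and 602 to 811. The 7 mesothelium markers summed to 2.55 to 12.7 and 1.13 to 3.99, with a median log2 fold change of -2.18. The 7 T cell markers had log2 fold changes from -1.91 to -0.74, with a median of -1.34. Kit, a mast cell marker, had -0.27. The stellate cell and fibroblast markers summed to 371 to 605 and 470 to 572, with a median of 0.10. Medians were above 0 for endothelial (0.66), adipocyte (0.44) and hepatocyte (0.88) markers, and below 0 for neutrophil (-0.46) and epididymis (-0.24) markers. Mast cell proteases are known activators of metalloproteinases. The part of these cells in the WAT values was not tested.

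**Figure D4:**
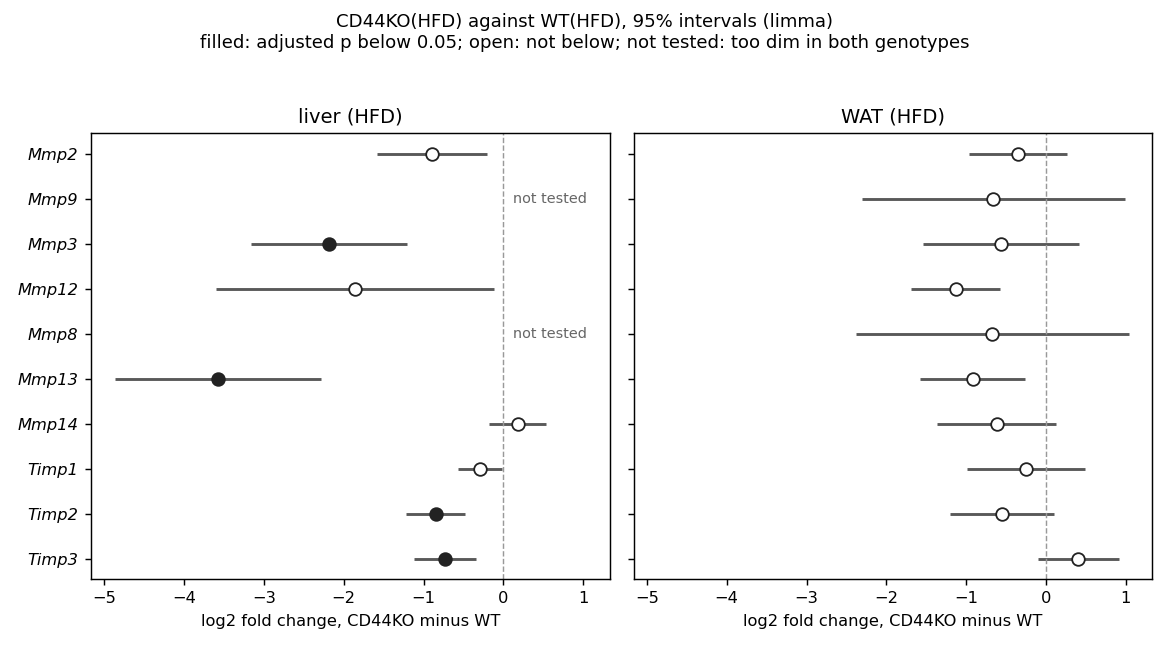
Log2 fold change (CD44KO(HFD) minus WT(HFD), horizontal axis) with its 95% interval for the 10 genes in liver and WAT, filled where the adjusted p was below 0.05 (limma). Liver shows filled points from -3.58 (Mmp13) to -0.73 (Timp3), and the WAT points lie between -1.13 (Mmp12) and 0.40 (Timp3), all open; the liver points of Mmp3, Mmp12 and Mmp13 rest on dim CD44KO(HFD) arrays.

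Whether the effect of CD44 loss differed between the tissues was tested on all 20 arrays. Over 28988 probes 1.15% were called and none of the 10 genes was, at an adjusted p under 0.05 (limma), while Mmp3, Mmp13 and Timp3 had an unadjusted p under 0.05, as 4570 of all probes did. Timp3, with opposite signs in the 2 tissues, had an effect in liver minus that in WAT of -1.14 (95% interval -1.75 to -0.52, adjusted p = 0.0631). Mmp13 had a difference of -2.66 (95% interval -4.11 to -1.20, adjusted p = 0.0656), and this turned to 0.16 after normexp. Mmp13 passed in 3 and Timp3 in 1 of 20 fits that each dropped an array, and both passed without CD44KO(HFD) liver replicate 3 (limma, adjusted p = 0.0143 and 0.0355). Mmp3 had -1.62 (adjusted p = 0.236). For Timp2 the difference of -0.30 (95% interval -1.03 to 0.43) was smaller than its error.

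As a description, each of the 10 genes had a higher mean in WT(HFD) WAT than in WT(HFD) liver. The share of all probes that were higher in WAT was not counted. Mmp8 and Mmp9 failed the background flag on every WT(HFD) liver array. Their WT(HFD) WAT means (-4.31 and -4.06) include replicate 1, which read -1.11 and -1.10. The mean levels were 3.68 and -4.31 for Mmp12, 2.30 and -4.39 for Mmp3, 6.31 and 2.77 for Timp2, 2.45 and -1.13 for Mmp2 and 4.54 and 2.62 for Mmp14. The gap was narrower for Mmp13 (-1.46 and -2.69), Timp3 (3.29 and 1.65) and Timp1 (3.16 and 1.78). Apart from Mmp8, Mmp9 and Mmp13, the genes did not overlap between WT(HFD) liver and WT(HFD) WAT, which was not counted over all probes. The brightest WT(HFD) liver arrays of Mmp13 (-1.38 and -1.62) lay within its WT(HFD) WAT range. No test is given, since slide and scanner changed with the tissue.

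The proteins that surround the family were taken from lists chosen with earlier results of these data known. Of 83 genes tested in liver in 7 lists, 26 were called lower and 3 higher, 34.9% against 13.6% of all probes, with a median log2 fold change of -0.39. The largest share was that of matrix substrates, the collagens, laminins, cross-linking enzymes and other proteins that metalloproteinases cut or meet, with 11 of 20 lower and none higher (median -0.75). Inducers, the cytokines, growth factors and AP-1, Ets and NF-kB genes that switch metalloproteinases on, had 1 of 18 lower, Pdgfa, and a median of -0.076, and activators had 1 of 8 lower and 2 higher (median 0.077). The Fos and Jun genes of the list were not called. In WAT none of the 88 genes tested was called, and the median was 0.10.

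The 8 genes with the largest change among those called without overlap in liver were Plat, Col6a3, Loxl1, Thbs2, Serpinh1, Mmp7, Pdgfa and Adamts9. Plat, tissue plasminogen activator, which makes plasmin, had liver means of -1.16 ± 0.44 (SD, n = 5) for WT(HFD) and -2.61 ± 0.37 (SD, n = 5) for CD44KO(HFD), a change of -1.45 (limma, adjusted p = 0.0103). Col6a3, a chain of collagen VI, fell by 1.43 on the log2 scale (adjusted p = 0.0133, limma), and Loxl1, a cross-linking enzyme of elastin, by 1.13. Thbs2, a thrombospondin known to clear Mmp2 from the matrix, fell by 1.09. Serpinh1, listed with the inhibitors although it is a collagen chaperone, fell by 1.05 (adjusted p = 0.0103, limma). Mmp7, matrilysin, fell by 0.77, Pdgfa, a growth factor for stellate cells, by 0.70 and Adamts9, a proteoglycan-cutting protease, by 0.65.

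Further called genes were named after their values were seen. Of other metalloproteinases, 3 of 8 tested were lower, Mmp7, the membrane-bound Mmp15 (-0.33) and Mmp23 (-0.91). Among other inhibitors, Thbs1, a thrombospondin, failed the background flag on all 5 CD44KO(HFD) arrays. Reckoned as for Mmp3, its signal there was lower by at least 1.14-fold (limma on the measured means, adjusted p = 0.0213). Pzp, an alpha-macroglobulin that traps proteases in plasma, rose by 0.56 (adjusted p = 0.00805, limma). Of the activators, Plg, the plasma protein plasminogen, and Klkb1, plasma prekallikrein, rose by 0.45 and 0.50 with adjusted p-values of 0.0491 and 0.0487 (limma). The 3 genes that rose encode proteins that hepatocytes secrete into plasma. Of 11 ADAM and ADAMTS genes tested, Adam8 (-1.68), Adam17 (-0.28), Adamts1 (-0.64), Adamts9 and Adamts12 (-1.41) were lower. Adamts12 passed the filter on dim probes through WT(HFD), being well above background on 4 WT(HFD) arrays and 1 CD44KO(HFD) array. Of 8 cathepsins and elastases, Ctsd (-0.42) and Ctsz (-0.52) were lower.

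**Figure D5:**
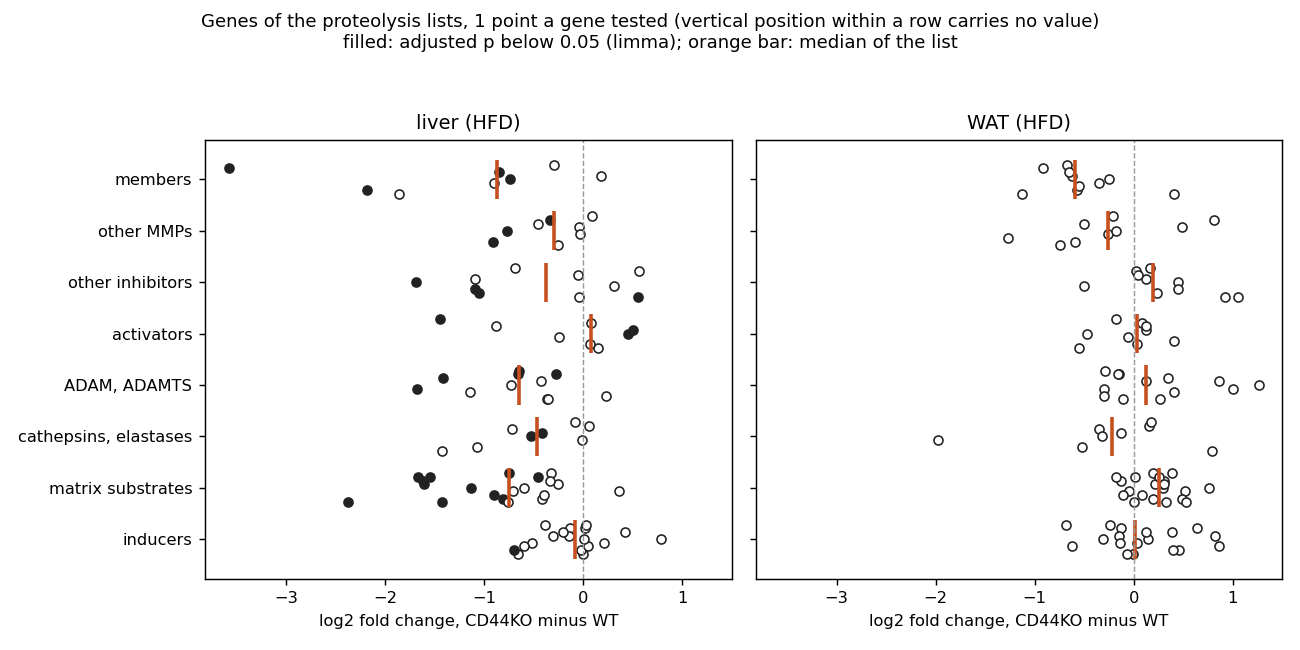
Log2 fold change (CD44KO(HFD) minus WT(HFD), horizontal axis) of each gene tested in the family and in 7 lists of related genes, in liver and WAT, filled where the adjusted p was below 0.05 (limma), with an orange bar at the list's median. In liver the medians run from -0.87 (the family) to 0.077 (activators) and 11 of 20 matrix substrates are filled; in WAT no point is filled.

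The number of called genes around the family depended on single arrays. It was 29 with all 10 liver arrays, 40 without CD44KO(HFD) replicate 3, 8 without WT(HFD) replicate 2, 10 without CD44KO(HFD) replicate 1 or 4, 12 without WT(HFD) replicate 1, 14 and 15 without CD44KO(HFD) replicates 5 and 2, and 18 without WT(HFD) replicate 5. For the 10 genes of the family it ran from 3 to 5 over the same fits, and it was 5 without CD44KO(HFD) replicate 3. Calls over all 24688 probes tested in liver moved with the same arrays, so the swing was not particular to these genes. The full fit called 3358 probes. Dropping CD44KO(HFD) replicate 3 raised this to 4647. The lowest total, 858, came from the fit that left WT(HFD) replicate 2 aside.

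The genes most like Mmp13, Mmp12 and Timp1 were ranked by the root mean square difference of their log2 values over the 10 arrays of a tissue, each gene centred on its own mean. In liver the values of Bmp8b, a bone morphogenetic protein, were closest to Mmp13 (0.44), ahead of Elovl7 (0.60), 0610009O20Rik, Mtmr11 and Sdcbp2 (0.63). The closest to Mmp12 were Nrg1 (0.68), an unnamed transcript, Cd63, Elovl7 and Chil3 (0.73), and to the brightest Timp1 probe Arl6ip5 (0.081), Itgav (0.089), Cachd1, Tmsb10 and Pgap6 (0.10). In WAT the closest to Mmp12 were Dcstamp (0.21), a fusion protein of osteoclasts and macrophages, and Tmem100 (0.22), and the closest to Mmp13 were Neurl1a (0.20) and Gla (0.22). The measure shares arrays and scaling with the genes compared and is a description.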

How the data were processed

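The authors hybridised RNA from liver and WAT to single-dye Agilent mouse arrays and, per the labels, read them with Agilent Feature Extraction 9.5; the deposited files hold the processed signal intensity of 45018 spots an array with flags for spots well above background, and the deposited series table equals these intensity values. No between-array normalization by the authors is given in the sources used here. Here log2 of the processed signal was taken relative to the 75th percentile of each array's non-control spots, spots of 1 probe were averaged, and a probe was tested where 3 or more of the 5 arrays of a group carried the background flag, with limma 3.58.1 in R 4.3.3 within each tissue (Benjamini-Hochberg over all probes tested). Single values were also given an exact permutation test over 252 relabellings. The tissue difference came from a fit of all 20 arrays. Accessions of 22951 probes matched the reference table, and promoter windows are RefSeq's. Arrays have no read depth, and their number limits the precision. The fits were tested on simulated data. The genes, lists, tests and rules for naming were chosen with earlier results of these data known. Named were all 10 genes, the 8 list genes with the largest change in each tissue that were called without overlap, markers that moved with the family, and the 5 genes most like Mmp12, Mmp13 and Timp1. Alternatives covered background correction (normexp, offset 50), scaling, filters, slide, array weights, probes and arrays left out.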

Additional observations from a re-analysis of the deposited data

Results flagged for a closer look

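In groups of 5 arrays, 7 values lay far from the other 4 of their group, by a gap that chance gives in about 1 in 20 groups. Each of the 10 genes was looked at in each of the 4 groups, so some such gaps arise by chance. CD44KO(HFD) liver replicate 3 did so for Mmp12 (-4.45, the others from -6.82 to -6.43) and Mmp13 (-4.62, the others from -6.95 to -6.40), and on that array both probes were well above background. CD44KO(HFD) liver replicate 2 did so for Mmp9 (-2.79, the others from -5.24 to -4.72), on a probe that was well above background on no other liver array, and CD44KO(HFD) liver replicate 5 for the brightest Timp1 probe (1.35, the others from 1.50 to 1.54), a gap of little size. WT(HFD) WAT replicate 1 did so for Mmp8 (-1.11, the others from -5.51 to -4.31), Mmp13 (-0.54, the others from -1.87 to -1.59) and Timp3 (2.61, the others from 3.30 to 3.55). That array differed from the other WAT arrays in 89.5% of its spots being well above background and in correlating with its group at 0.83 to 0.84 over all probes. No member's effect differed between liver and WAT past the threshold.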

How the results depend on the processing

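The 4 calls in liver became 2 after normexp (Timp2 and Timp3) and 2 in 1 fit of all 20 arrays (Mmp13 and Mmp3). The 29 related genes called in liver became 13 after normexp, 10 with no filter on dim probes, 15 in the fit of all 20 arrays, and 8 to 40 with an array left out. In WAT array weights gave 2 calls in the family and 16 among related genes, and the fit of all 20 arrays gave 6 of the latter. The tissue difference was called for 1 gene after normexp (Timp3), 1 after quantile normalization (Mmp13), 3 with array weights (Mmp3, Mmp13 and Timp3) and 0 to 2 with an array left out. Values that changed sign, none of them called, were in WAT those of Mmp2 (0.13) and Timp1 (0.23) under median scaling and of Mmp8 (0.13) and Mmp9 (0.34) with array weights; with an array left out Mmp8 ran from -0.97 to 0.13 and Mmp9 from -1.02 to 0.081. For the tissue difference these were Mmp3 (0.44), Mmp8 (0.99), Mmp12 (0.91) and Mmp13 (0.16) after normexp, Timp1 (0.17) after quantile normalization, Mmp8 (0.70) and Mmp12 (0.28) with dim signals raised, Mmp8 (0.22) and Timp2 (0.032) with the slide as a block and Timp1 (0.20) with array weights; with an array left out Mmp8 ran from -0.82 to 0.28 and Timp1 from -0.26 to 0.16.

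With the replicate block, which uses numbers that the labels do not make pairs (deviations of same-numbered arrays correlated between -0.21 and 0.34, and at most 1 of 5 correlated best with its own number), 3 of the 4 liver calls of the family passed, Timp3 having an adjusted p of 0.0531, as did 15 of the related genes, and none in WAT or for the tissue difference. Over all probes the liver count of 3358 was 641 after normexp, 1027 with no filter, 1329 with the replicate block, 638 in the fit of all 20 arrays and 858 to 4647 with an array left out. The WAT count of 11 was 35 after normexp, 19 with median scaling, 3 with no filter, 4 with the slide as a block, 3 with the replicate block, 2851 with array weights, 1647 in the fit of all 20 arrays and 3 to 19 with an array left out. The count of 334 for the tissue difference was 20 with median scaling, 77 with no filter, 621 with the slide as a block, 0 with the replicate block, 2438 with array weights and 84 to 582 with an array left out. Causes were not tested. Signals near background limit the liver values of Mmp3, Mmp8, Mmp9, Mmp12, Mmp13 and the dimmer Timp1 probes.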
